A study of Mus musculus with 22 samples.

Results

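Gastruloids are cultured aggregates of mouse embryonic stem cells in which cells of gastrulation appear, and the cells described here are those that the deposited cell table names Primitive Streak. They numbered 9604 of 77674 cells (12.4%) from 18 lanes of single-cell RNA-seq. All gastruloids came from wild-type (WT) cells of 1 line, E14Tg2A. Each was seeded with 300 cells and, 48 h later, exposed to 3 µM CHIR99021, which inhibits the kinase GSK3 and so activates Wnt signalling. Every group carries this exposure, so no comparison here has an untreated group. The samples differ in the age of the gastruloid, from day 3 to day 5 after aggregation. The 10X experiment (day 3 and day 4, 1 lane each) used pools of unbarcoded gastruloids. MULTI-seq, used in 3 experiments, marked every gastruloid's cells with a lipid-bound barcode, so that 4035 Primitive Streak cells could be assigned to 1 gastruloid and 5569 could not. MULTI-seq 1 held day 5, MULTI-seq 2 held days 4 and 4.5 in pools B and C, and MULTI-seq 3 held 3 pools, namely day 3, days 3.5 and 4, and days 4.5 and 5. Earlier samples of MULTI-seq 2 (days 3 and 3.5) are not analysed here. Per the labels, representative gastruloids were picked for barcoding, so the spread between them is that of picked gastruloids of 1 line.

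The primitive streak is the region of the gastrulating embryo where epiblast cells leave the epithelium and become mesoderm and endoderm. Wnt and Nodal signals induce it, and its cells switch on the T-box factors T (Brachyury) and Eomes and the homeobox factor Mixl1 while they still hold the pluripotency factor Pou5f1 (Oct4). Early and anterior streak, with high Nodal activity and Eomes, gives rise to endoderm and cardiac mesoderm. The later, posterior streak and the caudal epiblast beside it express Cdx and Hox genes and supply the tissues of the trunk.

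Gene levels below are UMI counts summed over the Primitive Streak cells of a gastruloid and scaled to a common total (CPM, the usual depth-scaled count). Gastruloids of MULTI-seq 3 with at least 10 such cells entered the gene comparisons, which gave 24 gastruloids at day 3, 16 at day 3.5 and 5 at day 4. A day 4 gastruloid of MULTI-seq 2 that also held 10 such cells was not used. The summed depth was 2343511 to 5961065 UMIs per gastruloid in the day 3 group, 382290 to 2922252 in that of day 3.5 and 288594 to 740315 in that of day 4, so day 4 is the least precise. The median Primitive Streak cell held 28671, 37528 and 38914.5 UMIs at days 3, 3.5 and 4 of MULTI-seq 3 and 16521 UMIs in the 10X lane of day 3. Of 9595 cell barcodes of Primitive Streak cells, 9 (0.0938%) occurred in more than 1 lane. In lane A of day 3, 3.42% of the Primitive Streak cells carried the barcodes of several gastruloids, and in lane B 18.2% did. These cells entered no gastruloid's sum. Nothing in the labels says that gastruloids of a day came from separate cultures, so p-values measure the spread between these gastruloids.

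At day 3, T, Mixl1 and Eomes were found in more Primitive Streak than neural cells, and Pou5f1 in nearly all cells of both. To compare cells at equal depth, each was thinned to 5000 UMIs. T was then found in 90.0% ± 3.63 (SD, n = 24 gastruloids) of Primitive Streak cells and in 33.9% ± 9.17 (n = 21) of Early Neurectoderm cells, a neural type that should hold little of it (99.7% and 73.1% of all cells without thinning, at median depths of 28671 and 27939 UMIs). Mixl1 was found in 20.7% ± 5.09 and 1.41% ± 2.34, and Eomes in 7.64% ± 2.95 and 0.724% ± 1.61. Pou5f1 did not separate the types, with 97.3% ± 1.41 and 97.8% ± 2.38. By summed level at day 3, T stood at 612 ± 41.7 CPM (SD, n = 24) in Primitive Streak, 475 ± 64.1 (n = 6) in Caudal Epiblast, 359 ± 65.4 (n = 20) in Early Nascent Mesoderm and 100.3 ± 27.2 (n = 21) in Early Neurectoderm cells. Mixl1 and Eomes were not highest in the streak cells. Mixl1 stood at 64.2 ± 15.4 CPM there and 341 ± 50.0 CPM in Early Nascent Mesoderm, and Eomes at 19.5 ± 5.08 and 206 ± 37.8 CPM. The types were named from expression, so these values describe the named cells and are no test. T lies at chr17:8434423-8442496 and Pou5f1 at chr17:35506018-35510772, both on the plus strand, Eomes at chr9:118478212-118486132 (plus) and Mixl1 at chr1:180693043-180697034 (minus), as whole genes in GRCm38, which is mm10, with GENCODE M21.

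The Primitive Streak cells were not uniform. The authors had also mapped each cell onto types of an embryo reference, and at day 3 the 3280 assigned cells held 2672 mapped to Primitive Streak, 246 mapped to Caudal epiblast and 308 mapped to Epiblast. These subsets were made from expression, so their levels are a description, with exact Poisson 95% intervals that cover counting error only. The Caudal-epiblast-mapped cells held T at 695 CPM (676 to 714) and the caudal homeobox gene Cdx2 at 253 CPM (242 to 265), with Eomes at only 3.32 CPM (2.15 to 4.91). In the Primitive-Streak-mapped cells T stood at 640.0 CPM, Cdx2 at 82.7 CPM and Eomes at 21.5 CPM (20.5 to 22.5). The Epiblast-mapped cells were the low end for T, at 316 CPM (304 to 327), and for Cdx2, at 11.8 CPM. They held the most of Utf1, a chromatin factor of pluripotent cells (82.6 CPM, against 14.9 and 6.25 CPM), and of Trh, the thyrotropin-releasing hormone precursor (78.9 CPM, against 11.3 and 4.12 CPM). Within single cells thinned to 5000 UMIs at day 3, Cdx2 was found in 39 of the 255 cells with Eomes (15.3%) and in 31.5% of the cells without it. At day 3.5, with the same thinning, only 10 cells held Eomes, 1 of them with Cdx2, while 62.2% of the others held Cdx2. Without thinning, Eomes was found in 27.5% of the cells at day 3 and 9.41% at day 3.5. A cell without Eomes after thinning may thus still express it.

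Primitive Streak cells made up most of a gastruloid at day 3 of MULTI-seq 3, a minor share at day 3.5 and a few percent at most from day 4 on. Their share per gastruloid was 33.2%, 60.3% and 70.6% (lowest, median and highest of 24) at day 3 and 4.29%, 13.1% and 21.3% (16 gastruloids) at day 3.5. No gastruloid of day 3.5 reached the lowest of day 3. The difference in means was -43.9 percentage points (two-sided permutation test, p = 2e-05, the smallest that 100000 resamples can give), but the days were captured in different pools, so pool and day cannot be told apart. At day 4, in the same pool and lanes as day 3.5, the share was 0.245%, 0.762% and 2.56%, and 5 of 16 gastruloids held at least 10 Primitive Streak cells. The highest shares in any gastruloid of days 4.5 and 5 of MULTI-seq 3 were 0.417% and 0.687%, and that of day 5 in MULTI-seq 1 was 0.610%. In pool B of MULTI-seq 2 the share at day 4 was 0%, 2.39% and 4.92% (11 gastruloids). Its highest, from 3 of 61 cells, lay above the lowest of day 3.5. At day 4.5 the share in this pool reached 1.12% (12 gastruloids). In the 10X lane of day 3 the share was 44.0% of 3058 cells (exact Clopper-Pearson 95% interval 42.3% to 45.8%), within the range of single gastruloids of day 3 in MULTI-seq 3.

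**Figure D1:**
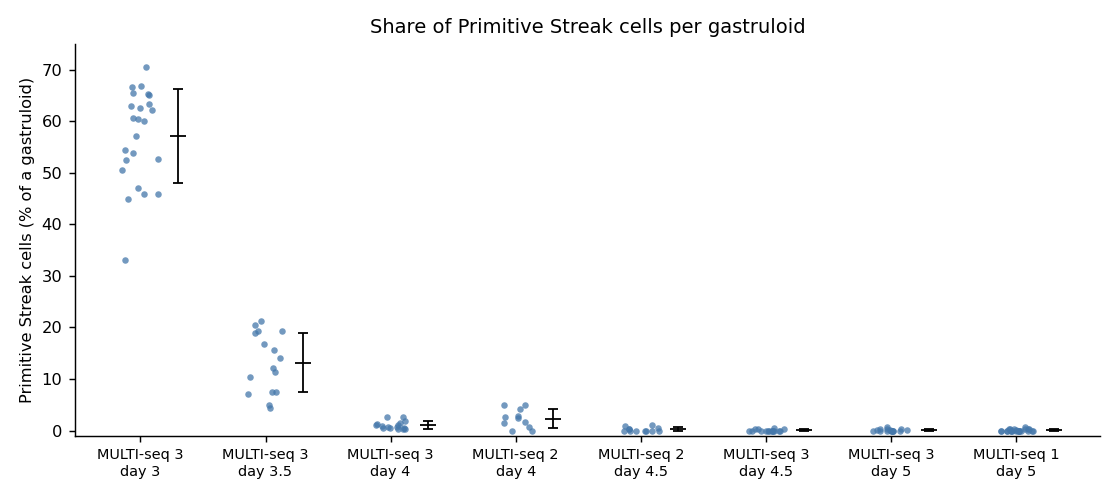
Percent of a gastruloid's cells named Primitive Streak (vertical axis) in 8 groups of gastruloids by experiment and day. Each point is 1 gastruloid and bars give the mean ± SD; day 3 averages 57.1% ± 9.09, day 3.5 13.2% ± 5.81 and day 4 of MULTI-seq 3 1.03% ± 0.760.

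Whether a gastruloid with more streak cells also differed in its other cells was tested with 19 relations, 8 at day 3 and 11 at day 3.5, each other type being counted among the cells that were not Primitive Streak. None passed after Benjamini-Hochberg adjustment; at an unadjusted p under 0.05, 0 of 8 and 2 of 11 Pearson correlations did. The closest was the share of Caudal Epiblast cells at day 3.5 (16 gastruloids, Pearson r = 0.60, permutation p = 0.0125, adjusted p = 0.237; Spearman rho = 0.66, permutation p = 0.00633, adjusted p = 0.120), with r = 0.71 without the 2 gastruloids farthest from the median. For Notochord cells at day 3.5 r was -0.53 (permutation p = 0.0376, adjusted p = 0.251), rho was -0.47 (permutation p = 0.0668), and r fell to -0.36 without those 2. For primordial germ cells (PGCs) at day 3, r was 0.40 (permutation p = 0.0530) and rho was 0.48 (permutation p = 0.0188, adjusted p = 0.179) over 24 gastruloids.

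The embryo types and stages onto which the authors mapped the Primitive Streak cells shifted from Primitive Streak toward Caudal epiblast between days 3 and 3.5, and at day 4 the mean stage and the mean Caudal epiblast share lay nearer to day 3. At day 3, 69.3%, 80.7% and 89.5% (lowest, median and highest) of a gastruloid's Primitive Streak cells mapped to Primitive Streak, 7.49% ± 3.12 (SD, n = 24) to Caudal epiblast and 9.55% ± 3.44 to Epiblast. At day 3.5 the shares were 33% ± 11.7 (n = 16) for Primitive Streak, 56.7% ± 12.0 for Caudal epiblast and 0.401% for Epiblast. The 2 days did not overlap for Caudal epiblast, whose highest share at day 3 was 17.3% and whose lowest at day 3.5 was 38.6%. The mean mapped stage was E7.01 ± 0.0316 at day 3 and E7.30 ± 0.0720 at day 3.5, where E counts days of embryonic development, later by 0.283 days in the mean and in 16 of 16 gastruloids above the day 3 median (two-sided permutation test, p = 2e-05). Here too days 3 and 3.5 came from different pools, so pool and day cannot be told apart. Cells without a stage made up 1.58% at day 3, 15.1% at day 3.5 and 2% at day 4.

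The 5 gastruloids of day 4 had a mean mapped stage of E7.09 ± 0.111, a difference of -0.205 days from day 3.5, and all 5 lay below the median of day 3.5 (two-sided exact permutation test, p = 0.000688). They shared pool and lanes with day 3.5. Their mean share mapped to Primitive Streak was 54.2% ± 18.1 (SD, n = 5), to Caudal epiblast 14.6% ± 20.1 and to Epiblast 4.03% ± 6.27. Nascent mesoderm took 1.04% ± 1.000, 4.25% ± 4.91 and 9.88% ± 6.35 at days 3, 3.5 and 4, and Anterior Primitive Streak 0.243% ± 0.423, 2.16% ± 2.90 and 9.78% ± 12.4, neither of them tested. The share mapped to Primitive Streak was higher by 21.2 percentage points in the mean (exact permutation p = 0.00963, above the day 3.5 median in 4 of 5), and the Caudal epiblast share differed by -42.1 points (exact permutation p = 0.000590, below the median in 5 of 5). Gastruloid 4 of day 4, with 10 streak cells, stood apart from the other 4, with 50% of its cells mapped to Caudal epiblast where the others had 0% to 10%. In the 10X lane of day 3, 69.9% of the 1347 cells mapped to Primitive Streak, 18.3% to Caudal epiblast and 7.05% to Epiblast.

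**Figure D2:**
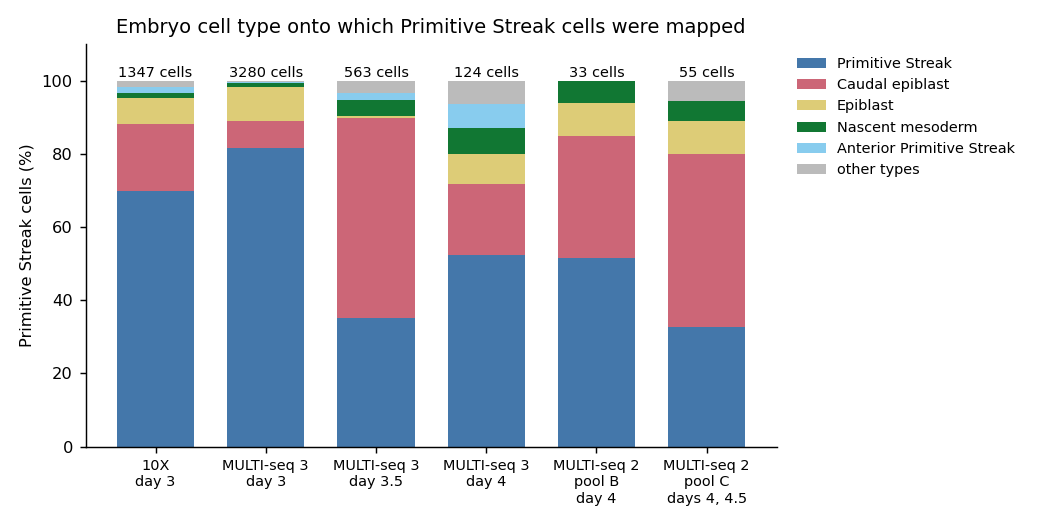
Stacked bars of the embryo reference types (percent of cells, vertical axis) onto which the authors mapped the Primitive Streak cells of 6 groups, with the number of cells above each bar. Caudal epiblast takes 7.50% of the 3280 assigned cells at day 3, 54.5% of 563 at day 3.5 and 19.4% of 124 at day 4 of MULTI-seq 3.

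Between days 3 and 3.5 the Primitive Streak cells held T in overlapping ranges and had less Pou5f1, Eomes and Mixl1. They had more of the caudal Cdx and Hox genes, Wnt feedback genes and presomitic mesoderm genes. Of 10028 genes tested, 6247 (62.3%) passed an adjusted p of 0.05 in edgeR's quasi-likelihood test with Benjamini-Hochberg adjustment over all genes tested, 3291 (32.8%) higher and 2956 (29.5%) lower at day 3.5. Against so high a background a call by itself says little about a gene, so sizes and overlaps are given. The counts called with TMM factors in each list for these 2 days are likewise to be read against 32.8% higher and 29.5% lower. The share of all genes without overlap is not given, here or at day 4. Lack of overlap thus does not by itself set a gene apart. DESeq2 called 6167. When the counts were scaled to total UMIs in place of edgeR's TMM factors, the median log2 difference of all genes moved from 0.03 to 0.18 and the split became 5025 higher and 1690 lower of 6715. Pool and day cannot be told apart here either. All adjusted p-values of gene comparisons below come from the edgeR test unless limma is named, and 3 levels in a row are the lowest, median and highest gastruloid. The ± of a log2 difference is a standard error worked back from the test. It is the size of the difference over the square root of edgeR's F statistic, or over limma's t statistic. Levels are scaled to total UMIs and so carry the 0.18 shift, while edgeR's log2 differences use TMM factors unless another scaling is named.

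T, the T-box factor that marks the streak, had 532, 613 and 694 CPM at day 3 and 505, 695 and 956 CPM at day 3.5. The ranges overlapped, and the log2 difference with TMM factors was 0.03 ± 0.04 (adjusted p = 0.50). Under total UMI scaling the difference was 0.19 (adjusted p = 1.3e-04), and in only the cells mapped to Primitive Streak it was -0.10 (adjusted p = 0.17). This fit to mapped cells held 24 gastruloids of day 3 and 8 of day 3.5. Pou5f1, the POU factor of pluripotent cells, had 711, 764 and 853 CPM at day 3 and 403, 487 and 608 CPM at day 3.5, and the log2 difference was -0.80 ± 0.03 (adjusted p = 1.5e-31). Every gastruloid of day 3.5 lay below every gastruloid of day 3. Mixl1, a homeobox factor of mesendoderm, had 32.6, 70.6 and 85.9 CPM at day 3 and 6.29, 30.8 and 77.9 CPM at day 3.5, a log2 difference of -1.04 ± 0.15 (adjusted p = 1.4e-08). The day 3.5 gastruloids were spread widely, and the highest of them fell among those of day 3. Eomes, which with Nodal specifies endoderm and early mesoderm, had 5.23, 20.3 and 27.0 CPM at day 3 and 0, 3.30 and 14.4 CPM at day 3.5 (-2.10 ± 0.21, adjusted p = 3.9e-13). Some day 3.5 gastruloids had no Eomes UMI in their streak cells, and the top ones reached the lower end of day 3.

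Of the 13 streak genes listed, 12 were tested, and 3 rose and 5 fell (median log2 difference 0.01, all genes 0.03). Among all genes 32.8% rose and 29.5% fell. With total UMI scaling 7 rose and 5 fell. Wnt3a, a Wnt ligand of the later streak, had 6.60, 11.9 and 17.4 CPM at day 3 and 17.1, 29.9 and 41.9 CPM at day 3.5 and rose by 1.15 ± 0.10 (adjusted p = 2.8e-16), and only the lowest day 3.5 gastruloids touched the range of day 3. In the pooled assigned cells mapped to Primitive Streak it stood at 11.6 CPM at day 3 and 15.5 CPM at day 3.5. In those mapped to Caudal epiblast it stood at 30.2 and 43.1 CPM. Fgf8, the main FGF ligand of the streak, had 277, 366 and 439 CPM at day 3 and 254, 422 and 549 CPM at day 3.5, with 0.06 ± 0.06 (adjusted p = 0.37). It was named after its values were seen. Of the Nodal pathway genes 4 of 9 tested fell and 1 rose (median -0.16), but under total UMI scaling 4 rose and 2 fell, so the list has no direction that holds under both. Nodal, the TGF-beta family ligand, had 21.2, 36.2 and 52.5 CPM at day 3 and 4.46, 19.8 and 59.3 CPM at day 3.5 (-0.81 ± 0.15, adjusted p = 5.4e-06). Its co-receptor Tdgf1 (Cripto) had 32.0, 64.5 and 98.1 CPM at day 3 and 1.04, 28.4 and 76.4 CPM at day 3.5 (-1.20 ± 0.20, adjusted p = 5.2e-07). For both genes single day 3.5 gastruloids stood as high as day 3, and Nodal did not pass among the cells mapped to Primitive Streak alone (-0.20, adjusted p = 0.37). In the pooled cells so mapped, Tdgf1 stood at 65.1 CPM at day 3 and 48.5 CPM at day 3.5. Those mapped to Caudal epiblast held it at 3.32 and 1.20 CPM.

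In the list of core, formative and primed pluripotency, 9 of 13 tested genes fell and 2 rose (median -0.79). Fgf5, an FGF of the primed epiblast, had 61.2, 89.1 and 126 CPM at day 3 and 9.78, 23.6 and 65.6 CPM at day 3.5 (-1.95 ± 0.12, adjusted p = 7.3e-22), with little overlap. Otx2, a homeobox factor of the anterior epiblast, had 3.89, 7.63 and 16.2 CPM at day 3 and 0, 1.58 and 22.5 CPM at day 3.5 (-0.95 ± 0.27, adjusted p = 0.0022), and Utf1 differed by -0.96 ± 0.17 (adjusted p = 1.9e-06). Both turned positive among the cells mapped to Primitive Streak, at 0.25 (adjusted p = 0.56) and 0.44 (adjusted p = 0.053). Few naive pluripotency genes were expressed enough to test. Of 3, Dppa5a fell (-1.03 ± 0.17, adjusted p = 5.2e-07) and no gene rose, although its highest gastruloid of day 3.5 exceeded all of day 3 (20.8 CPM in the median, 134 CPM at most). In the cells mapped to Primitive Streak its difference was -0.29 (adjusted p = 0.17).

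The caudal genes rose together, 13 of 13 tested (of 21 listed), with a median log2 difference of 1.44. With total UMI scaling 13 of 13 rose as well, and among cells mapped to Primitive Streak 9 of 11 did. Hoxb9, a posterior Hox gene, had 0.232, 2.76 and 5.61 CPM at day 3 and 7.34, 22.1 and 48.5 CPM at day 3.5, a log2 difference of 3.00 ± 0.17 (adjusted p = 5.6e-23). Hoxb8 had 0.927, 7.51 and 16.2 CPM at day 3 and 28.3, 54.5 and 78.3 CPM at day 3.5 (2.58 ± 0.15, adjusted p = 7.0e-23), and Hoxb4 differed by 2.11. For each of these 3 Hox genes the lowest gastruloid of day 3.5 lay above the highest of day 3. Hoxaas3, a long non-coding RNA of the Hoxa cluster, had the highest rise of the genes named by size (3.52 ± 0.20, adjusted p = 1.1e-22). It is named as an antisense RNA, and the sources used here do not say whether strand was used in counting. Cdx1 and Cdx2, which control Hox genes, and Nkx1-2, a homeobox gene of the caudal epiblast, are added here after their values were seen. Cdx2 had 61.1, 87.8 and 129 CPM at day 3 and 162, 229 and 383 CPM at day 3.5 (1.22 ± 0.07, adjusted p = 7.0e-23), Cdx1 rose by 1.19 and Nkx1-2 by 1.06. Fgf17, an FGF of the tail bud, rose by 1.91, again without overlap. In the pooled assigned cells mapped to Primitive Streak, Hoxb8 stood at 4.60 CPM at day 3 and 12.2 CPM at day 3.5. Cdx2 stood there at 82.7 and 126 CPM. The cells mapped to Caudal epiblast held Hoxb8 at 55.5 and 95.3 CPM and Cdx2 at 253 and 325 CPM. The part of the shift in mapped types in these differences was not tested.

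Feedback genes of the Wnt pathway rose in 7 of 9 tested and fell in 0 (median 0.38). Nkd1, an inhibitor induced by Wnt itself, had 10.3, 16.9 and 23.8 CPM at day 3 and 31.4, 46.6 and 60.2 CPM at day 3.5 (1.23 ± 0.07, adjusted p = 5.2e-23). Lef1, the transcription factor that acts with beta-catenin, had 78.3, 85.1 and 105 CPM at day 3 and 128, 165 and 198 CPM at day 3.5 (0.77 ± 0.04, adjusted p = 2.1e-24), and neither gene overlapped between days. Notum, a secreted enzyme that inactivates Wnt ligands, rose by 0.94, Tnfrsf19 by 0.86, and Sfrp1, a secreted Wnt inhibitor named by size, by 2.31. BMP genes showed 5 of 9 rising and 1 falling (median 0.76), with Msx1 at 2.15, Id1 at 1.18 and Id3 at 1.02, all targets of BMP signalling. Among FGF receptors and ERK targets 5 of 11 rose and 2 fell (median 0.09). Spry2, an FGF antagonist, fell by 0.52, while Spred1 and Spred2 rose by 0.40 and 0.38.

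Genes of nascent and presomitic mesoderm, a type these cells give rise to, rose in 5 of 7 tested and fell in 1 (median 1.36). Hes7, the oscillating repressor of the segmentation clock, had 15.3, 30.9 and 54.1 CPM at day 3 and 73.7, 122 and 226 CPM at day 3.5 (1.79 ± 0.12, adjusted p = 3.0e-20). Rspo3, a secreted enhancer of Wnt signalling, had 107, 148 and 204 CPM at day 3 and 332, 409.8 and 611 CPM at day 3.5 (1.38 ± 0.06, adjusted p = 3.5e-27). Neither gene overlapped between days. Tbx6, a T-box factor of presomitic mesoderm, rose by 1.65 and the Notch ligand Dll1 by 1.36, both with overlapping ranges. The 1 that fell was Mesp1, a factor of the earliest mesoderm, with 8.80, 23.0 and 73.0 CPM at day 3 and 3.03, 8.05 and 66.5 CPM at day 3.5 (-0.79 ± 0.27, adjusted p = 0.0086). The summed level of the 12 genes was 206, 279 and 424 CPM at day 3 and 553, 690.3 and 1075 CPM at day 3.5. Its part in the other differences was not tested. Anterior streak and endoderm genes went down in 4 of 6 tested and up in 1 (median -0.73). Gsc (Goosecoid), the organizer homeobox gene, fell by 2.06, Lhx1 by 1.08 and Hhex by 0.77, while the BMP antagonist Chrd rose by 1.16 from low levels. The summed level of the 11 genes was 67.0, 101 and 238 CPM at day 3 and 26.2, 60.8 and 254 CPM at day 3.5, so single gastruloids of day 3.5 were as high as day 3.

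Of 14 adhesion genes tested 5 rose and 5 fell, near the shares of all genes (32.8% higher and 29.5% lower). Vim, the mesenchymal filament protein, had 104, 139 and 165 CPM at day 3 and 296, 391 and 629.6 CPM at day 3.5 (1.33 ± 0.06, adjusted p = 4.2e-28), and N-cadherin Cdh2 had 38.1, 55.0 and 79.8 CPM at day 3 and 113, 129 and 165 CPM at day 3.5 (1.03 ± 0.07, adjusted p = 5.2e-20), both without overlap. The tight junction claudins fell, Cldn7 by 1.32 and Cldn6 by 1.10, and Epcam, an epithelial surface protein named after its values were seen, had 343, 388 and 431 CPM at day 3 and 194, 247 and 303 CPM at day 3.5 (-0.79 ± 0.04, adjusted p = 3.3e-25). Glucose transporters rose, Slc2a3 by 1.45 ± 0.08 (adjusted p = 5.6e-25) and Slc2a1 by 1.06 ± 0.06 (adjusted p = 1.1e-24), both without overlap, while Ldha, the enzyme that makes lactate, fell by 0.45. Over the glycolysis list 5 of 14 rose and 6 fell, but 10 rose and 2 fell with total UMI scaling, so the list has no direction that holds under both. Cell cycle genes fell in 9 of 12 and rose in 2 (8 and 2 with total UMI scaling), with Cdk1, the mitotic kinase, at -0.58 ± 0.04 (adjusted p = 6.9e-18) and the inhibitor Cdkn1c at 0.58.

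Of the lists of other cell types and of RNA quality, early neural plate genes rose in 3 of 6 tested and fell in 2 (median 0.42, all genes 0.03), with Hes3, a repressor gene expressed in neural progenitors, at 2.06 and Zic2 at -0.79. Their summed level was 198, 217 and 262 CPM at day 3 and 229, 276 and 329 CPM at day 3.5. Germ cell genes rose in 1 of 3 (Dnd1, 1.30, list median 0.11) and later mesoderm and endothelium genes in 1 of 3 (Aldh1a2, the retinoic acid synthase, 3.45, list median 0.08), the latter with 0, 0.607 and 1.57 CPM at day 3 and 2.62, 7.18 and 20.3 CPM at day 3.5. The endothelial factor Tal1 was at 0 in all gastruloids of day 3.5. Stress genes rose in 3 of 8 and fell in 1 (median 0.14), with Jun at 1.15 and Trib3 at -1.18, and a summed level of 119.9, 132 and 162 and 109.9, 154 and 221 CPM. With 32.8% of all genes higher and 29.5% lower, such counts in short lists do not set these lists apart. The part of these genes in the other differences was not tested. Outside the lists, the largest rises with at least 20 CPM, beside Hoxaas3 and Sfrp1 given above, were Cd36 (2.48), a fatty acid transporter, and Limch1 (2.32). Peg10 (2.29), an imprinted gene, Defa30 (2.15), whose reads may belong to a related copy of this gene family, and Cpxm2 (2.08) followed. The largest falls were Pkdcc (-1.98), Socs2 (-1.65), a suppressor of cytokine signalling, Gng3 (-1.37), Nefl (-1.27), Tmem238 (-1.25), Nrcam (-1.24) and Igfbp2 (-1.22), which binds insulin-like growth factors.

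**Figure D3:**
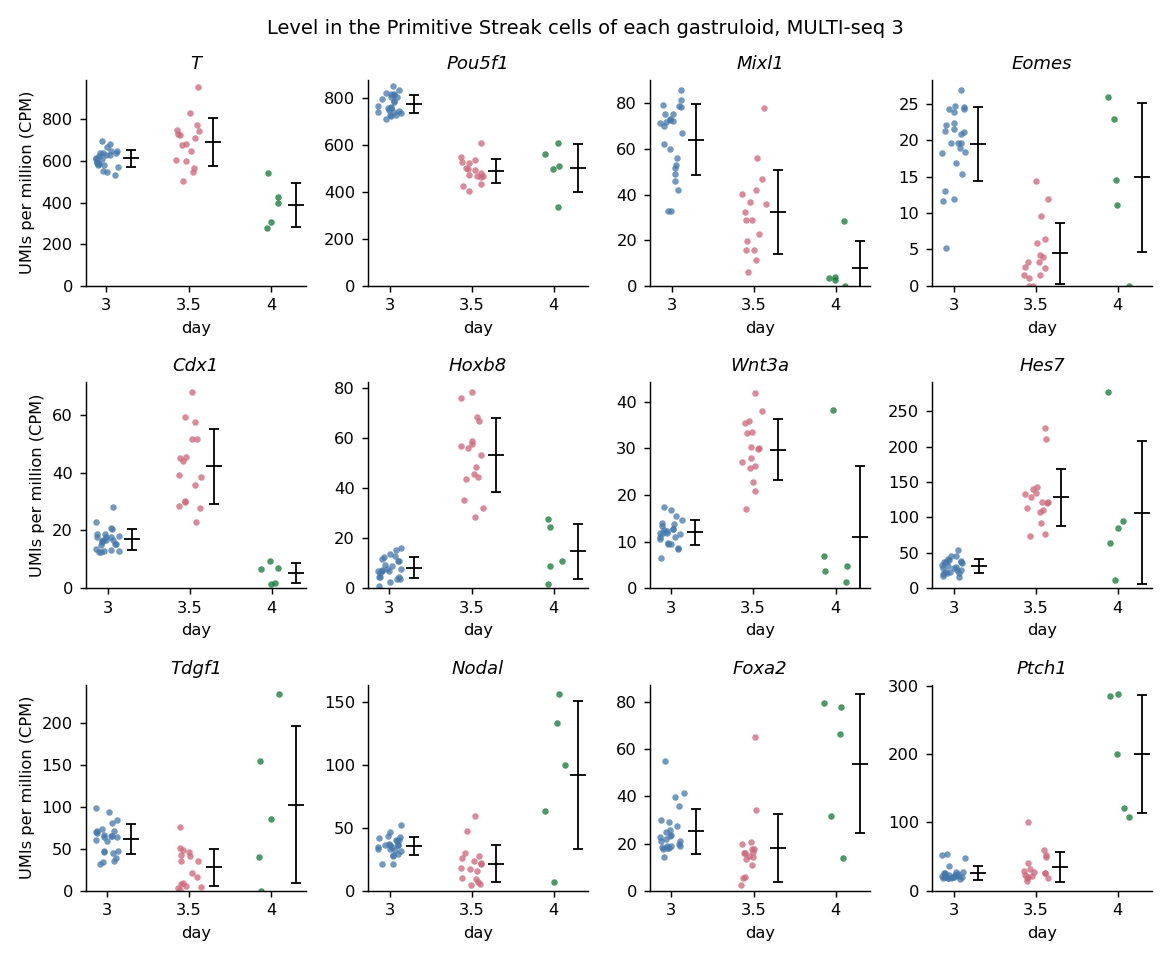
Levels (CPM of the Primitive Streak cells of a gastruloid, vertical axes) of 12 genes at days 3, 3.5 and 4 of MULTI-seq 3. Each point is 1 gastruloid (24, 16 and 5) and bars give the mean ± SD; Pou5f1 and Hoxb8 separate days 3 and 3.5 completely, and Cdx1 falls to 1.35 to 9.51 CPM at day 4 while Ptch1 reaches 107 to 288 CPM.

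The 10X experiment gave a second set of day 3 streak cells, 1347 from 1 lane of pooled gastruloids and so without a test. Their levels are set beside the 3280 pooled cells of MULTI-seq 3, with exact Poisson 95% intervals that cover counting error only. T stood at 861 (849 to 872) CPM against 614 (609 to 619) CPM, Mixl1 at 186 (181 to 192) against 65.7 (64.1 to 67.3), and Eomes at 36.2 (33.9 to 38.7) against 19.8 (18.9 to 20.7). The 3 streak markers were thus all higher in the 10X cells. So was Nodal, at 92.4 (88.6 to 96.3) against 35.8 (34.6 to 37.0) CPM. Cdx2 stood at 144 (139 to 149) against 88.8 (86.9 to 90.6) CPM and Trh at 76.0 (72.5 to 79.5) against 17 (16.2 to 17.9) CPM. The lanes also differed in depth, with medians of 16521 and 28671 UMIs per cell, and in mitochondrial share, 4.86% and 2.19% in the median cell. Experiment and biology cannot be told apart in this pair. The 3664 day 3 cells of MULTI-seq 3 not assigned to 1 gastruloid, those with the barcodes of several included, had T at 620.1 (616 to 625) CPM and Eomes at 20.2 (19.4 to 21.1) CPM, close to the assigned cells.

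At day 4 the few remaining Primitive Streak cells had lower T and much lower caudal genes than at day 3.5, and higher Nodal pathway, anterior streak and pluripotency genes. Of 8262 genes tested over 16 and 5 gastruloids, 461 (5.58%) passed, 225 (2.72%) higher and 236 (2.86%) lower at day 4. Both days shared a pool and its lanes. The count rests on few cells. It was 306, 377, 307, 585 and 322 with each of day 4 gastruloids 1 to 5 left out in turn, lowest without gastruloids 1 and 3 and highest without gastruloid 4. Among only the cells mapped to Primitive Streak, 144 genes passed, over 8 gastruloids of day 3.5 and 3 of day 4. Gastruloids 3 and 4 fell below the minimum of 10 cells there. The part of the fewer gastruloids in calls lost in this fit was not tested.

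In day 4 gastruloids 1 to 5, T stood at 276, 544, 426, 308 and 399 CPM, where day 3.5 had 505, 695 and 956 CPM, a log2 difference of -0.79 ± 0.12 (adjusted p = 8.4e-05). Only gastruloid 2 lay inside the range of day 3.5. Among the cells mapped to Primitive Streak the difference was -0.64 (adjusted p = 0.083). Mixl1 stood at 4.05, 28.5, 3.62, 0 and 2.74 CPM (-1.97 ± 0.58, adjusted p = 0.038), with the 1 high value in gastruloid 2, but the call was lost without gastruloid 1 (adjusted p = 0.14), 3 (0.12), 4 (0.060) or 5 (0.15). Eomes stood at 23.0, 11.1, 14.5, 0 and 26.0 CPM (1.77 ± 0.47, adjusted p = 0.020), and its call was lost without gastruloid 1 (adjusted p = 0.11) or 5 (0.14) and with DESeq2 (adjusted p = 0.095). Pou5f1, at 608, 563, 500.0, 336 and 509 CPM, differed by 0.09 ± 0.08 (adjusted p = 0.62) and overlapped day 3.5.

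Of the caudal genes 8 of 11 tested fell and 1 rose (median log2 difference -1.83, all genes 0.00667). Cdx1 stood at 1.35, 9.51, 1.81, 6.93 and 6.84 CPM in gastruloids 1 to 5, where day 3.5 had 22.9, 41.7 and 67.9 CPM, a difference of -3.02 ± 0.39 (adjusted p = 3.2e-06). All 5 lay below every gastruloid of day 3.5. Hoxb8, at 24.3, 1.59, 9.06, 27.7 and 10.9 CPM (-1.95 ± 0.31, adjusted p = 7.5e-05), did not overlap day 3.5 either, but among the cells mapped to Primitive Streak its difference was -0.85 (adjusted p = 0.73). Hoxb1 fell by 2.81, Hoxb2 by 2.61 and the Wnt ligand Wnt5b by 2.68. Gbx2, a homeobox factor of the posterior epiblast, fell by 2.89, and Crabp2, a retinoic acid binding protein, by 2.74. The Wnt ligand Wnt3a stood at 1.35, 4.76, 3.62, 38.1 and 6.84 CPM (-1.93 ± 0.34, adjusted p = 3.9e-04), high only in gastruloid 4, the other 4 lying below every gastruloid of day 3.5. Of the Wnt feedback genes 4 of 8 fell and 1 rose (median -0.50), with Nkd1 at 8.10, 15.9, 10.9, 13.9 and 15.0 CPM (-1.83 ± 0.20, adjusted p = 1.4e-07), all below day 3.5, and Notum at -2.36.

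Nodal pathway genes rose in 4 of 9 and fell in 0 (median 0.75). Nodal stood at 63.5, 99.9, 156, 6.93 and 133 CPM, where day 3.5 had 4.46, 19.8 and 59.3 CPM (2.15 ± 0.34, adjusted p = 8.5e-05). It was low in gastruloid 4 and above the day 3.5 maximum in the other 4. Tdgf1 stood at 85.1, 39.6, 234, 0 and 155 CPM (1.92 ± 0.46, adjusted p = 0.0081), with no UMI in gastruloid 4, and its call was lost without gastruloid 3 (adjusted p = 0.12) or 5 (0.060). The co-receptor Cfc1 (Cryptic) rose by 2.45, though not without gastruloid 3 (2.15, adjusted p = 0.062), and Dand5, a Nodal antagonist, by 2.50. The antagonist Lefty1, at 1.92 in the full comparison, did not pass without gastruloid 1 (adjusted p = 0.21), 3 (0.094) or 5 (0.24). Of the anterior streak genes 3 of 4 tested rose and 0 fell. Foxa2, a forkhead factor of node and endoderm, stood at 66.2, 31.7, 77.9, 13.9 and 79.3 CPM, against 2.65, 16.1 and 65.2 CPM at day 3.5 (1.79 ± 0.33, adjusted p = 4.7e-04), with gastruloid 4 near the day 3.5 median. Trh stood at 335, 36.5, 837, 13.9 and 205 CPM, against 2.62, 11.4 and 96.1 (3.43 ± 0.48, adjusted p = 1.5e-05), inside the day 3.5 range in gastruloids 2 and 4 and far above it in gastruloids 1, 3 and 5. The list's summed level was 52.0, 421 and 1078 CPM, with Cer1 at 0 in all 5, and its part in the other differences was not tested. Trh is 1 of the 3 genes that rose and weighs heavily in this sum, at 837 CPM in gastruloid 3. At day 3 Trh was highest in the Epiblast-mapped cells (78.9 CPM), where Foxa2 (9.39 CPM) and Lhx1 (2.67 CPM) were lowest.

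Pluripotency genes rose in 6 of 11 and fell in 2 (median 0.73). Dppa5a stood at 1082, 101, 665, 6.93 and 142 CPM, against 13.3, 20.8 and 134 CPM at day 3.5 (3.42 ± 0.43, adjusted p = 2.4e-06). Gastruloids 1 and 3 were far above day 3.5, gastruloid 5 just above its maximum, gastruloid 2 within its range and gastruloid 4 below it. Utf1 rose by 2.01, a call lost without gastruloid 1 (1.38, adjusted p = 0.13), and so did Sox2 by 1.25 (0.81 without gastruloid 1, adjusted p = 0.19). Nanog rose by 1.27, and passed with each gastruloid left out, but not in the fit without lane A (adjusted p = 0.077) or lane B (0.38). Ptch1, the Hedgehog receptor, stood at 199.9, 120.5, 288, 107 and 284 CPM and all 5 lay above the day 3.5 range of 15.0 to 100 CPM (2.73 ± 0.25, adjusted p = 5.3e-09). Rflnb, a regulator of the actin-binding filamins, at 37.8, 49.1, 43.5, 24.3 and 64.3 CPM, was likewise above every gastruloid of day 3.5, which reached 18.2 CPM (2.97 ± 0.27, adjusted p = 5.3e-09). Pcp4 rose by 2.61, the secreted chaperone Clu by 2.59, the imprinted gene Phlda2 by 2.57, the neuropeptide Gal by 2.52 and Tnfrsf12a by 2.25. The fit to only the cells mapped to Primitive Streak held 8 gastruloids of day 3.5 and gastruloids 1, 2 and 5 of day 4. There Ptch1 (2.61), Rflnb (3.36), Dppa5a (2.85), Foxa2 (1.58), Cdx1 (-2.33) and Wnt3a (-3.38) still passed. Nodal (1.08, adjusted p = 0.15), Trh (2.00, 0.088) and Nanog (0.37, 0.68) did not.

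In the adhesion list 6 of 14 rose and 2 fell (median 0.62), with Cldn6 at 58.1, 46.0, 83.3, 10.4 and 68.4 CPM against 4.06, 11.1 and 43.1 CPM at day 3.5 (1.94 ± 0.33, adjusted p = 2.0e-04), and the keratins Krt8 at 1.61 and Krt18 at 1.54. Glycolysis genes rose in 5 of 14 and fell in 0 (median 0.34), among them Ldha by 0.60, which missed the threshold without gastruloid 2 (adjusted p = 0.052). Against the 2.72% of all genes called higher and 2.86% called lower, FGF and ERK genes had 1 of 11 up and 1 down (median -0.22), BMP genes 1 of 7 up and 1 down (0.23), early neural genes 1 of 6 up and 1 down (-0.08) and cell cycle genes 1 of 12 up and 1 down (0.20). Nascent mesoderm genes had 0 of 6 in either direction (-0.31) and stress genes 0 of 6 (0.23). Naive pluripotency genes had 1 of 2 up (Dppa5a), germ cell genes 0 of 2, and later mesoderm 1 of 1, Aldh1a2, up by 1.96. The summed level of the 5 germ cell genes was 10.4, 46.0 and 87.8 CPM at day 4, against 23.1, 37.3 and 44.9 CPM at day 3.5. Its part in the other differences was not tested.

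Other experiments held further day 4 streak cells, with at least 10 in only 1 assigned gastruloid, so no test was made. Their pooled levels carry exact Poisson 95% intervals that cover counting error only. Trh stood at 209.8 (198 to 222) CPM in all 124 assigned day 4 cells of MULTI-seq 3, at 176 (152 to 204) CPM in 33 cells of pool B of MULTI-seq 2 and at 127 (108 to 147) CPM in 55 cells of pool C, whose days 4 and 4.5 are not separated. Ptch1 stood at 157 (146 to 167), 181 (156 to 209.5) and 55.9 (44.0 to 70.0) CPM in the same order, and Dppa5a at 303 (289 to 318), 67.0 (52.0 to 85.0) and 156 (136 to 179) CPM. At day 3, pooled Trh was 17 CPM in MULTI-seq 3 and 76.0 CPM in the 10X lane. In the 17 cells of the 10X lane of day 4, Trh stood at 19.4 (7.12 to 42.2) CPM, from 6 UMIs. Ptch1 stood at 48.5 (27.1 to 80.0) CPM in those 17 cells, Dppa5a at 55.0 CPM (17 UMIs), Tdgf1 at 9.70 (2.00 to 28.3) CPM and Eomes at 0 (exact upper limit 11.9) CPM. Nodal was 25.9 (11.2 to 51.0) CPM there against 92.4 CPM in the 10X lane of day 3. T stood at 393 (377 to 410.2), 448 (408 to 492), 423 (389 to 459) and 194 (148 to 249.7) CPM in MULTI-seq 3, pool B, pool C and the 10X lane. Cdx1 stood at 8.56 (6.31 to 11.3), 21.7 (13.6 to 32.8), 26.8 (18.8 to 37.1) and 9.70 (2.00 to 28.3) CPM. In pool B, Wnt3a stood at 24.6 (15.9 to 36.4), Hoxb8 at 31.5 (21.6 to 44.5) and Nodal at 34.5 (24.0 to 48.0) CPM. These values lay within the day 3.5 gastruloid ranges of MULTI-seq 3. Foxa2 at 71.0 (55.5 to 89.4) and Rflnb at 31.5 (21.6 to 44.5) CPM lay above those ranges, as did Trh and Ptch1. Nanog stood at 8.87 (4.06 to 16.8) CPM in pool B.

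Gastruloids of one day differed in what their other cells were, and the next question was whether the streak cells of neural-rich gastruloids differed from those of others. The neural percent is the share of cells with 1 of 6 neural names among the cells that are not Primitive Streak. It ran from 3.31% to 77.6% (median 42.9%) over the 24 gastruloids of day 3 and from 0.562% to 89.9% (median 54.0%) over the 16 of day 3.5. Slopes are log2 differences per 10 percentage points, all gastruloids of a day having shared their lanes. At day 3 the streak cells of neural-rich gastruloids held less of several nascent mesoderm and streak genes. Of 10751 genes, 209 (1.94%) passed, 59 (0.549%) with a rising and 150 (1.4%) with a falling slope. DESeq2 called 161. In the cells of lane A alone 103 passed and in those of lane B alone 37.

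Mesp1 had 73.0 CPM in the gastruloid at 3.31% and 18.0 CPM in the one at 77.6%, the ends of the range, and its slope was -0.19 ± 0.04 (adjusted p = 6.6e-04). Tdgf1 had 98.1 CPM in the gastruloid at 3.31% and 35.3 CPM in the one at 77.6%, with a slope of -0.12 ± 0.02 (adjusted p = 7.0e-04). Fn1 (fibronectin), the matrix protein on which mesoderm migrates, had 71.7 CPM in the gastruloid at 3.31% and 40.3 CPM in the one at 77.6%, with -0.11 ± 0.01 (adjusted p = 1.6e-07). All 3 were lower at the neural end, and each passed in all alternatives, the fits to either lane included. Of the streak markers, Mixl1 had 71.3 and 32.7 CPM at these ends (-0.09 ± 0.02, adjusted p = 0.0013) and Eomes 20.9 and 5.23 CPM (-0.12 ± 0.02, adjusted p = 0.0014). Both lost the call in the fit without lane A (adjusted p = 0.12 and 0.20). T had 549.6 and 548 CPM (-0.01 ± 0.01, adjusted p = 0.41) and Pou5f1 729 and 762 CPM (0.01 ± 0.01, adjusted p = 0.76), and neither passed. Tgfb1, a TGF-beta ligand, had a slope of -0.12 ± 0.02 (adjusted p = 1.4e-05) and S100a10 -0.09 ± 0.01 (adjusted p = 5.5e-08). Rising slopes belonged to Ptn (pleiotrophin), a heparin-binding growth factor of neural tissue, with 21.3 and 74.0 CPM at the ends and 0.12 ± 0.02 (adjusted p = 9.9e-06), and to Pou3f1 (Oct6), a POU factor of epiblast and early neural cells, with 20.9 and 25.4 CPM and 0.11 ± 0.02 (adjusted p = 3.5e-04). Rspo1 followed with 0.10, and Sort1, Igdcc3 and Stmn3 with 0.08, 0.08 and 0.07, 4 genes that did not pass in the fit without lane A. By list, falling slopes passed in 5 of 7 nascent mesoderm genes (median -0.11, all genes -0.000395), 5 of 12 streak genes (-0.04) 3 of 15 adhesion genes and 1 of 10 Nodal pathway genes, and rising slopes in 0 of each.

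At day 3.5 Tdgf1, Fn1, Ptn and Pou3f1 passed again with slopes of the same sign, and Trh and Nodal passed as well. Of 8911 genes 150 (1.68%) passed, 50 (0.561%) rising and 100 (1.12%) falling. Trh had 73.3 CPM in the gastruloid at 0.562% and 7.28 CPM in the one at 89.9%, with a slope of -0.42 ± 0.05 (adjusted p = 1.4e-05). Tdgf1 had 35.6 and 1.04 CPM at the same ends (-0.32 ± 0.05, adjusted p = 2.4e-04), Nodal 17.2 and 7.28 CPM (-0.23 ± 0.04, adjusted p = 0.0013) and Fn1 67.9 and 36.4 CPM (-0.13 ± 0.02, adjusted p = 2.3e-04). In only the cells mapped to Primitive Streak, over 8 gastruloids, Tdgf1 (-0.24, adjusted p = 0.15) and Nodal (-0.15, 0.42) did not pass. T itself had 956 and 565 CPM, with -0.05 ± 0.01 (adjusted p = 0.0078), a call that was lost in the fit without lane B (-0.04, adjusted p = 0.29). Pou5f1 had 432 and 471 CPM and an adjusted p of 1. On the rising side, Efnb1, an ephrin ligand of cell sorting, had 14 and 57.2 CPM at the ends (0.24 ± 0.03, adjusted p = 7.2e-07), Ptn 45.3 and 168 CPM (0.21 ± 0.02, adjusted p = 5.6e-07), Hes3 12.9 and 46.8 CPM (0.23 ± 0.03, adjusted p = 6.0e-06) and Gbx2 23.7 and 53.1 CPM (0.13 ± 0.02, adjusted p = 0.0013). Pou3f1 had 4.31 and 29.1 CPM (0.18 ± 0.04, adjusted p = 0.015) and did not pass without the 2 gastruloids farthest from the median (adjusted p = 0.070). By list, falling slopes passed in 7 of 14 adhesion genes (median -0.09, all genes -7.91e-05), among them Cldn6 (-0.23), Snai1 and Fn1, in 3 of 12 streak genes and in 2 of 8 Nodal pathway genes. Of 6 neural plate genes, rising slopes passed in 2, Hes3 and Zic5, and a falling slope in 1, Nes (nestin), an intermediate filament gene of neural progenitors, with 217 and 83.3 CPM at the ends (-0.08 ± 0.02, adjusted p = 0.0034).

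At day 3.5 the neural percent left a gap, with 7 gastruloids at or below 29.2% and 9 at or above 52.9%, and the relation was also fitted within each side. Within the 7, 0 of 9620 genes passed edgeR's test (376 at an unadjusted p under 0.05, a level that 5% of genes without a slope would reach). Within the 9, 1 of 8131 passed (509 unadjusted), and the slope of Fn1 there was 0.02. Among only the cells mapped to Primitive Streak, 18 genes passed over 8 gastruloids of day 3.5 and 117 over 24 of day 3. The summed level of the neural plate list in streak cells was 262 CPM at the lowest and 213 CPM at the highest neural percent of day 3, and 329 and 316 CPM at day 3.5. At the day 3.5 ends Nes stood at 217 and 83.3 CPM, and Sox21 (9.70 and 7.28 CPM) and Zic1 (1.08 and 1.04 CPM) were also lower at the highest neural percent. Hes3, Zic2, Zic5, Sox3, Irx3, Sox1 and Six3 each stood higher there, Zic2 at 35.6 and 61.4 CPM and Sox3 at 18.3 and 34.3 CPM. Sox1 (1.08 and 7.28 CPM) and Six3 (0 and 1.04 CPM) were low. At the day 3 ends Zic2 (70.0 and 50.2 CPM), Zic5 (60.2 and 51.5 CPM) and Irx3 (14.5 and 2.88 CPM) went the other way. Hes3 and Sox3 again stood higher at the neural end. Their part in the slopes was not tested. The gastruloids at the ends held 75 and 127 Primitive Streak cells at day 3 and 23 each at day 3.5.

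**Figure D4:**
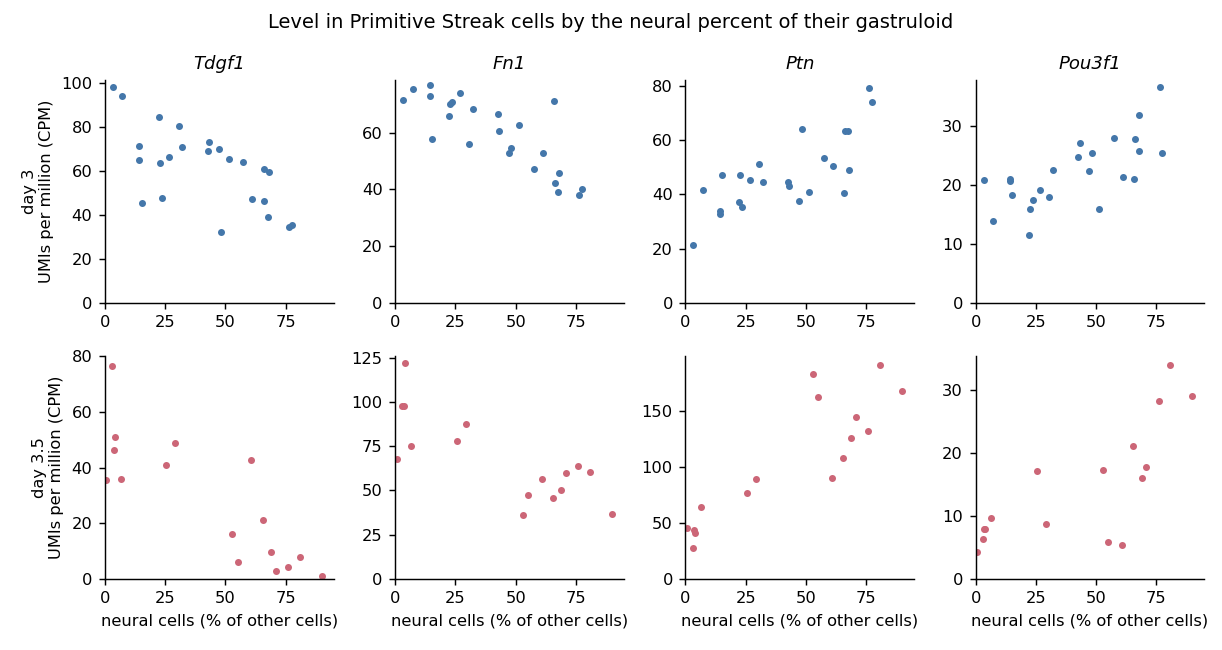
Level in Primitive Streak cells (CPM, vertical axes) of Tdgf1, Fn1, Ptn and Pou3f1 against the neural percent of the gastruloid's other cells (horizontal axes), for 24 gastruloids of day 3 (upper row) and 16 of day 3.5 (lower row). Tdgf1 and Fn1 go down and Ptn goes up toward the neural end on both days, and the day 3.5 points leave a gap between 29.2% and 52.9%.

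The last comparison set the change from day 3 to 3.5 in Primitive Streak cells against that in Early Neurectoderm cells of the same gastruloids (21 of day 3 and 9 of day 3.5 with at least 10 cells of both types). A shift common to both types of a pool cancels in this difference, which is on the log2(CPM + 1) scale and understates the change of low genes. Cells were named by expression, so the test is conditional on those names. Of 9480 genes, 1034 (10.9%) differed in their change by limma's test, 547 (5.77%) moving up in streak cells relative to Early Neurectoderm and 487 (5.14%) moving down. T had 610.0 ± 38.4 CPM at day 3 and 632 ± 88.3 at day 3.5 in Primitive Streak cells, against 100.3 ± 27.2 and 34.3 ± 14.4 in Early Neurectoderm cells (SD). The streak means lay within 1 SD of each other and the neural mean was lower at day 3.5, a difference in change of 1.62 ± 0.13 (adjusted p = 2.2e-14). Pou5f1 went from 776 to 497 CPM in Primitive Streak cells and from 882 to 547 CPM in Early Neurectoderm cells, with 0.04 ± 0.05 (adjusted p = 0.66), so that a difference in its fall was not detected. Eomes went from 18.9 to 2.69 CPM in Primitive Streak cells and from 3.05 to 1.06 CPM in Early Neurectoderm cells (-1.86 ± 0.31, adjusted p = 1.5e-05), and Mixl1 did not pass (-0.17 ± 0.32, adjusted p = 0.82).

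Caudal genes moved up in streak cells relative to Early Neurectoderm in 10 of 12 tested and down in 0 (median 1.34, all genes -0.01). Cdx1 went from 17.1 to 40.5 CPM in Primitive Streak cells and from 8.09 to 2.33 CPM in Early Neurectoderm cells (2.81 ± 0.30, adjusted p = 2.2e-10), opposite in the pair. Hoxb8 went from 7.68 to 52.6 CPM in Primitive Streak cells and from 37.0 to 52.4 CPM in Early Neurectoderm cells (2.17 ± 0.28, adjusted p = 4.2e-08), so that the means of both types were nearly equal at day 3.5. Hes7 went from 30.9 to 124 CPM in Primitive Streak cells and from 16.8 to 9.52 CPM in Early Neurectoderm cells (2.71 ± 0.25, adjusted p = 2.7e-12) and Hes3 from 4.66 to 32.6 CPM in Primitive Streak cells and from 67.6 to 112 CPM in Early Neurectoderm cells (1.89 ± 0.17, adjusted p = 4.6e-13). Also upward were Hoxaas3 (2.56), Defa30 (2.70), Cpxm2 (2.23), Hotairm1 (2.06), a non-coding RNA of the Hoxa cluster, Kitl (1.98), the ligand of the Kit receptor, and Fgf17 (1.75). Tdgf1 went from 58.4 to 12.4 CPM in Primitive Streak cells and from 2.15 to 0.268 CPM in Early Neurectoderm cells (-1.56 ± 0.38, adjusted p = 0.0033), a call lost with a pseudocount of 0.1 (adjusted p = 0.77), and Gsc went from 19.4 to 4.83 CPM in Primitive Streak cells and from 3.20 to 5.14 CPM in Early Neurectoderm cells (-2.60 ± 0.48, adjusted p = 6.9e-05). Mthfd2, a mitochondrial enzyme of folate metabolism, went from 63.1 to 45.5 CPM in Primitive Streak cells and from 60.2 to 96.9 CPM in Early Neurectoderm cells (-1.20 ± 0.12, adjusted p = 1.9e-11), down in one type and up in the other. Lhx1 (-1.90), Nrcam (-1.29), the amino acid transporter Slc7a5 (-1.14), Rdh11 (-1.01), Fn1 (-0.996), Ablim1 (-0.98) and Fgf5 (-0.93) were the other large downward differences. Fgf5 did not pass with at least 20 cells per type (adjusted p = 0.29) and Ablim1 not without day 3 lane A (0.072). In Early Neurectoderm cells Lhx1 stood at only 0.700 and 0.439 CPM, below the 1 CPM added before taking logs.

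Cell cycle genes moved down relative to Early Neurectoderm in 7 of 12 and up in 1 (median -0.23), and glycolysis genes up in 6 of 14 and down in 0 (median 0.14). Streak genes moved up in 6 of 12 and down in 2, Wnt feedback genes up in 4 of 8 and down in 0, and nascent mesoderm genes up in 3 of 6 and down in 0. Primed pluripotency genes moved up in 1 of 13 and down in 4. The outcome depends on the type set beside the streak cells. Against Caudal Epiblast cells (6 gastruloids of day 3 and 15 of day 3.5) 431 genes passed, 190 of them shared with the 1034. Of the 1034, 1032 were tested again and 852 kept their sign. The differences of T, Cdx1 and Hes7 were 0.35 (adjusted p = 0.092), 0.11 (0.80) and 1.25 (1.7e-06) by limma. Against Early Nascent Mesoderm (20 and 6 gastruloids) 851 genes passed, 238 of them shared, and 737 of 1023 kept their sign. The difference of Hes7 there was 0.56 (adjusted p = 0.35) by limma.

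**Figure D5:**
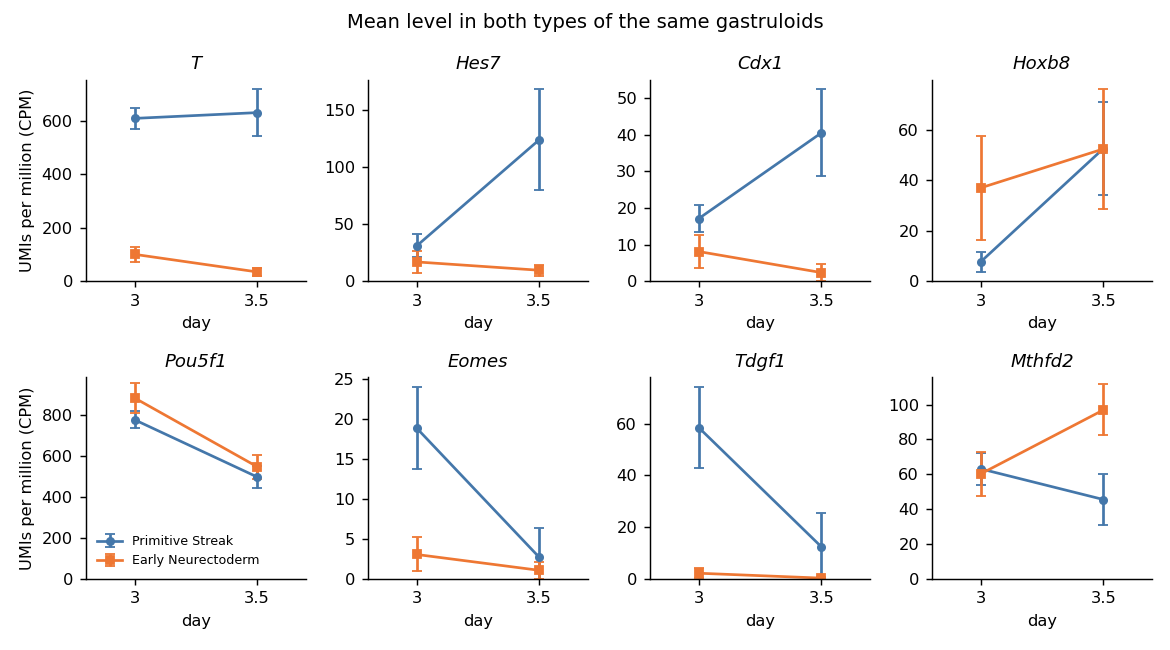
Mean level (CPM, vertical axes) ± SD over gastruloids of 8 genes in Primitive Streak and Early Neurectoderm cells of the same gastruloids, at day 3 (21) and day 3.5 (9). T has similar means in streak cells and a lower one in Early Neurectoderm at day 3.5, Cdx1 moves in opposite directions, and Pou5f1 is lower in both types at day 3.5.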

How the data were processed

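Single-cell RNA-seq (10x Chromium 3′) counts were used for 18 lanes of wild-type E14Tg2A gastruloids. The deposited matrices hold UMI counts per gene and cell, made by the authors with Cell Ranger 6.0.0 and analysed in Seurat, with build mm10, per the submitters' processing notes. Cell type, mapped type, mapped stage, day and gastruloid came from the authors' deposited cell table, and no label gives its cell filters or doublet steps. No doublet caller was run. Counts of Primitive Streak cells were summed per gastruloid over lanes, and genes were filtered with filterByExpr (minimum count 10). Tests were edgeR 4.0.16 (quasi-likelihood, TMM), limma 3.58.1 on within-gastruloid differences of log2(CPM + 1), and permutation tests in scipy 1.17.1 (100000 resamples or exact). DESeq2 1.42.0 was an alternative, with other scaling, filters, cell minimums, mapped cells only, lanes or gastruloids left out, and another cell type. Statistics were first tested on simulated data. Named genes were the 4 markers, up to 4 called genes of largest change in each of 17 lists (211 genes), and the 10 largest rises and falls with at least 20 CPM, without mitochondrial, ribosomal protein, Gm-number and Rik genes. Exceptions are named in the text. The members and lists were chosen with earlier results of these data known.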

Additional observations from a re-analysis of the deposited data

Results flagged for a closer look

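Among the 5 gastruloids of day 4, 59 measures were checked for a value far from the other 4, and 7 had one. Chance marks about 1 in 20 such groups. Gastruloid 2 was the high one for Mixl1, 28.5 CPM (others 0 to 4.05 CPM), and for Id1, a BMP target, 780.0 CPM (others 142 to 310.5 CPM). Gastruloid 4 was the high one for the posterior homeobox gene Gbx2, 27.7 CPM (others 1.37 to 2.70 CPM), for Wnt3a, 38.1 CPM (others 1.35 to 6.84 CPM), and for the share of its cells mapped to Caudal epiblast, 50% where the others had 0% to 10%. Notum was high in gastruloid 1, 10.8 CPM (others 0 to 2.74 CPM), and the keratin Krt18 in gastruloid 3, 152 CPM (others 34.7 to 67.0 CPM).

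The change from day 3 to day 3.5 differed between Primitive Streak and Early Neurectoderm cells for 1034 genes by limma's test of the difference itself. Of the markers this held for T (1.62 on the log2 scale) and Eomes (-1.86). Both types were named from expression, so these differences are conditional on those names. The 10 named genes that moved up relative to Early Neurectoderm were Cdx1 (2.81), Hes7 (2.71), Defa30 (2.70), Hoxaas3 (2.56), Cpxm2 (2.23), Hoxb8 (2.17), Hotairm1 (2.06), Kitl (1.98), Hes3 (1.89) and Fgf17 (1.75). The 10 that moved down were Gsc (-2.60), Lhx1 (-1.90), Tdgf1 (-1.56), Nrcam (-1.29), Mthfd2 (-1.20), Slc7a5 (-1.14), Rdh11 (-1.01), Fn1 (-0.996), Ablim1 (-0.98) and Fgf5 (-0.93). In Early Neurectoderm cells of days 3 and 3.5, Tdgf1 stood at 2.15 and 0.268 CPM and Lhx1 at 0.700 and 0.439 CPM. The 1 CPM added before taking logs understates changes at such levels. The call of Tdgf1 was lost with a smaller pseudocount. That of Fgf5 was lost with more cells required per type, and that of Ablim1 without day 3 lane A.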

How the results depend on the processing

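Of the counts of called genes, these moved by over 1.5 times. For day 4 against 3.5, 461 became 144 in cells mapped to Primitive Streak and 254, 196 and 297 without lanes A, B and D, with 306 to 585 over the gastruloids left out. For the day 3 slopes, 209 became 117 in mapped cells, 37 without lane A, 103 without lane B and 129 without the 2 farthest gastruloids. For the day 3.5 slopes, 150 became 18 in mapped cells, 71, 70 and 79 without lanes A, B and C, 0 below 40% neural and 1 above. For the difference between types, 1034 became 682 with at least 20 cells, 554 and 515 without day 3 lanes A and B, and 431 with Caudal Epiblast. The cause was not tested, beyond fewer cells or gastruloids in each. These values changed sign. Day 3.5 against 3: T, -0.00625 without a count filter and -0.0997 in mapped cells, where Utf1 was 0.44, Otx2 0.25 and Smad7 0.0856. Day 3.5 slope of Pou5f1: -0.00312, -0.00571, -0.00482, -0.00350, -0.00118 and -0.0206 in 6 alternatives. Below 40% neural, T was 0.00981, Mixl1 0.27 and Hoxb1 0.0195; above it, Fabp7 was 0.0219, Gal 0.23, Krt8 0.0757, Nkx1-2 -0.0225 and Fn1 0.0249. Difference between types: Mixl1, 1.62 with a pseudocount of 0.1 and 0.11 without day 3 lane A; Pou5f1, -0.00336 with at least 5 cells and -0.0196 without that lane; and against Early Nascent Mesoderm Kitl -0.18, Slc7a5 0.14 and Ablim1 0.12. Total UMI scaling, the split at 40% neural and the tests of mapped shares were added after seeing the data. The stage comparison of day 4 with at least 20 cells was not run, as too few gastruloids remained. No paired analysis was possible because the days hold different gastruloids: barcode numbers that recur across days pair nothing, and lane letters mark technical splits of a pool. Only the comparison of types was made within gastruloids. Depth limits day 4 most.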

Other observations

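A few cells of days 4.5 and 5 still carried the name Primitive Streak, 25 in MULTI-seq 3, 14 in MULTI-seq 1 and 7 assigned to day 4.5 in pool B of MULTI-seq 2, too few per gastruloid for a test. The pooled levels of the first 2 sets, chosen for naming after they were seen, carry exact Poisson 95% intervals that cover counting error only. Dppa5a, a gene of naive pluripotent and germ cells, stood at 1515 (1446 to 1587) CPM in MULTI-seq 3 and 1184 (1059.6 to 1318) CPM in MULTI-seq 1, against 43.6 CPM in the 563 pooled cells of day 3.5. Dppa3 (Stella), a germ cell gene, stood at 60.8 (47.6 to 76.4) and 10.7 (2.21 to 31.3) CPM, the latter from 3 UMIs, and Trh at 305 (274 to 338) and 442 (368 to 527) CPM. Among the listed germ cell genes, Prdm1 and Kit each stood at 5.00 CPM in MULTI-seq 3 and at 0 in MULTI-seq 1. Nanos3 stood at 6.66 and 3.56, Tfap2c at 9.16 and 21.4 and Dnd1 at 12.5 and 35.6 CPM, in the same order. Pou5f1 stood at 512 (472 to 554) and 802 (701 to 914) CPM. T was 189 (165 to 215) CPM in MULTI-seq 3 and 339 (274 to 414) CPM in MULTI-seq 1. No Cdx1 UMI was found in the 25 cells, with an exact upper limit of 3.07 CPM. Of the 15 assigned day 5 cells of MULTI-seq 3, 7 mapped to Epiblast and 6 to Primitive Streak. At day 4, Dppa3 stood at 64.8, 0, 34.4, 0 and 0 CPM and the endoderm factor Sox17 at 16.2, 1.59, 54.3, 0 and 0 CPM in gastruloids 1 to 5, with both present in gastruloids 1 and 3.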
